A study of Mus musculus with 20 samples.

Results

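The genes described here are 38 interferon-stimulated genes, the transcripts that cells raise when interferon reaches its receptor, measured in the livers of 4 inbred mouse strains. The set is defined by gene names and by no threshold on these values. Of the 38, 35 had a probe set annotated to that gene alone, out of 19938 genes named on the array, and all 35 passed the filter on dim genes and were tested. Isg15 and Oas1g shared their probe sets with another gene, so they and Ifi44 were not analysed here. Each of the 35 had 1 such probe set.

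Type I interferons bind a receptor that activates Jak1 and Tyk2, and these kinases drive a complex of STAT proteins and Irf9 into the nucleus. The complex binds a promoter element called the interferon-stimulated response element (ISRE) and raises a set of genes that sense viral nucleic acid, degrade viral RNA, block translation or entry, and adjust the signal itself. Irf7, one of the induced genes, in turn promotes further interferon production, and in liver both hepatocytes and Kupffer cells, the resident macrophages, carry the response.

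Liver RNA of 20 male mice was hybridised to whole-transcript arrays, with 5 animals of each strain. The strains were NZO/Hl (NZO), an obesity-prone strain, C3H, 129P2/OlaHsd (129P2) and C57/Bl6 (B6), the common reference strain. All animals were 6 weeks old and had received a diet with 45% of its energy as fat since weaning at 21 days, so there was no animal on another diet and none was labelled as infected or given interferon. Values are on the log2 scale, on which a difference of 1 is a 2-fold difference, and each p-value is from limma's moderated test with Benjamini-Hochberg adjustment over all 14190 tested genes. A value is called dim where it does not exceed its array's 40th percentile.

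All 5 measured hepatocyte markers, Alb and Ttr among them, were above the 40th percentile on all 20 arrays, and 0 of them passed the test in any comparison. The labels name no batch, and the spread of an array, taken as its interquartile range, averaged 2.33 ± 0.111 in NZO, 2.31 ± 0.0883 in C3H, 2.32 ± 0.0726 in 129P2 and 2.43 ± 0.0574 in B6 (SD, n = 5 each). The 3 narrowest arrays were C3H replicate 3, 129P2 replicate 2 and NZO replicate 2. As these are whole-tissue samples, fewer cells of a type and less RNA per cell cannot be told apart.

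The interferon-stimulated genes split the strains into a higher pair, NZO and B6, and a lower pair, C3H and 129P2. In a moderated F-test over the 4 strains, 32 of the 35 genes (91.4%) passed the threshold, against 17% of all tested genes. The exceptions were Ifi35, Oas2 and Stat2, which also passed in no pairwise comparison. The median level over the 35 genes was computed for each animal: it averaged 8.63 ± 0.21 in NZO, 8.27 ± 0.16 in C3H, 7.99 ± 0.13 in 129P2 and 8.62 ± 0.27 in B6 (SD, n = 5 each). The mean was highest in NZO for 17 genes and in B6 for 18, and lowest in 129P2 for 29 and in C3H for 6. C3H and 129P2 held the lowest 2 means for 33 of the 35 genes, against 15.9% of all tested genes.

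**Figure D1:**
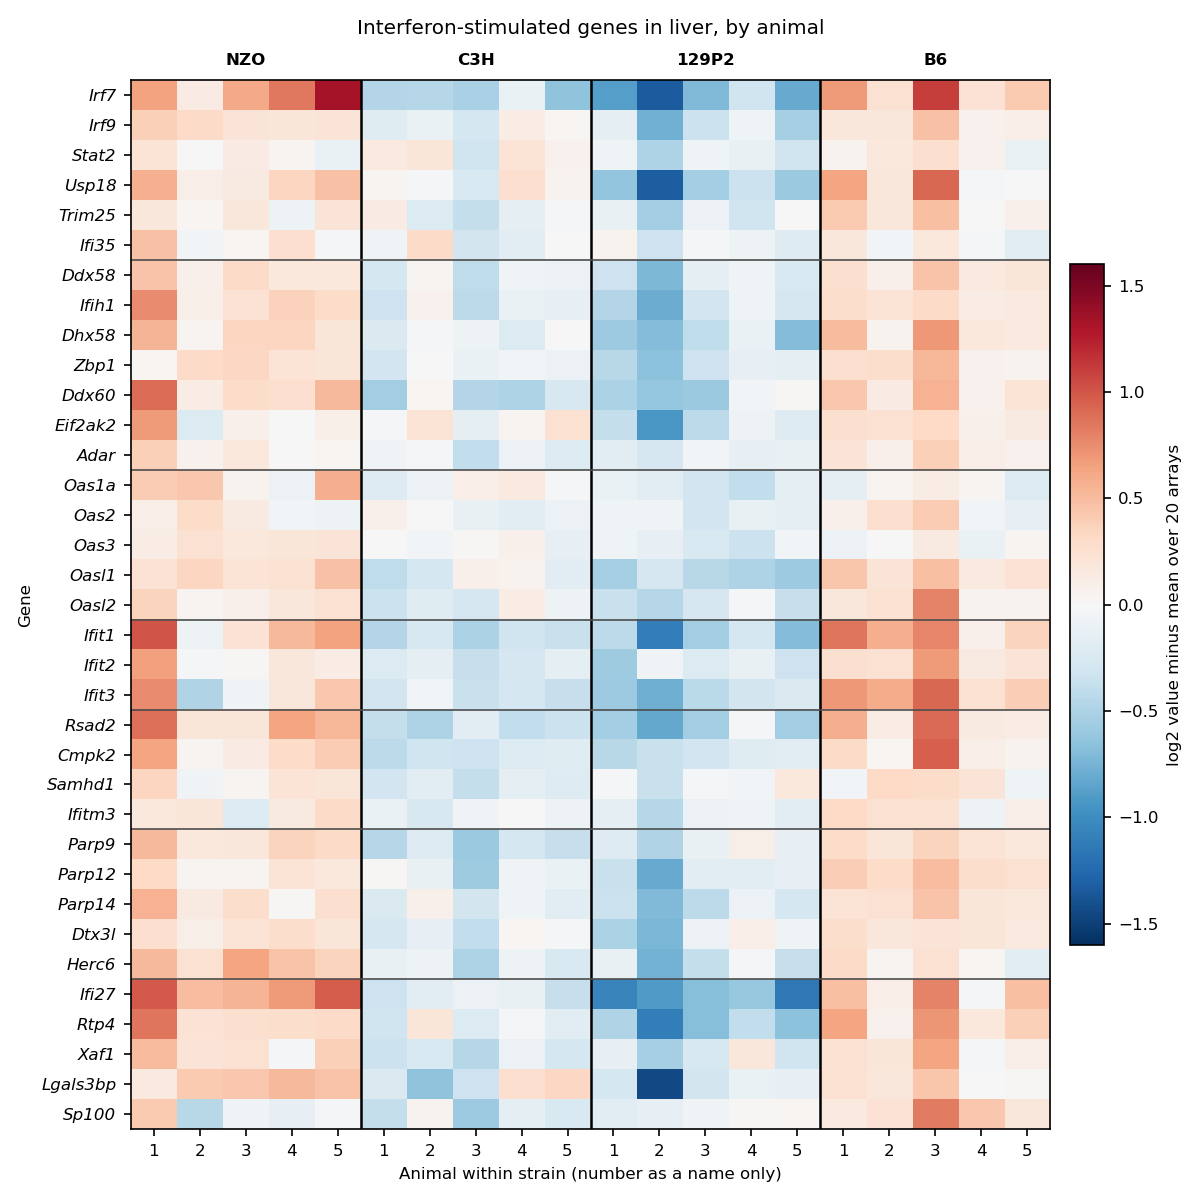
The heatmap shows each of the 35 genes (rows, grouped by role) in each of the 20 animals (columns, by strain), as log2 values minus the gene's mean over all animals. The NZO and B6 columns are mostly above the mean and the C3H and 129P2 columns mostly below it, and C3H and 129P2 held the lowest 2 strain means for 33 of the 35 genes.

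For NZO minus B6, 0 of the 35 genes passed the threshold in limma's test, where 10.3% of all tested genes did. Their differences ran between -0.41 and 0.37, with a median of -0.00284, against 0.008997 over all tested genes. With array spread as a covariate 3 passed (Herc6, Ifi35 and Ifih1, higher in NZO), where 1378 of 14190 tested genes passed in either direction. Without single animals the count was at most 2, with some genes higher and some lower in NZO. At an unadjusted p under 0.05 there were 6, and the lowest adjusted p was 0.0617, of Sp100, a protein of nuclear bodies. All 35 confidence intervals (95%) lay within 1 log2 unit of 0, with the highest upper bound at 0.66 for Ifi27 and the lowest lower bound at -0.75 for Ifit3. The test leaves room for differences up to those bounds. The values of NZO and B6 overlapped for all 35 genes, where 3.5% of all tested genes lay above B6 in NZO without overlap and 5.82% lay below.

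For NZO minus C3H, 18 genes were higher in NZO and 0 were lower, where 3.51% of all tested genes were higher and 3.09% lower. The count was 11 with array medians made equal, where 731 of 14190 tested genes passed in either direction. The median difference of the 35 genes was 0.39, against -0.003309 over all tested genes. All 5 NZO values lay above all 5 C3H values for 22 genes, where 3.78% of all tested genes did so. For NZO minus 129P2, 29 genes were higher in NZO and 0 were lower, where 4.29% of all tested genes were higher and 4.61% lower. Here the median difference was 0.54, against 0.007933 over all tested genes, and the NZO values lay above the 129P2 values without overlap for 24 genes (3.88% of all tested genes).

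For C3H minus B6, 21 genes were lower in C3H and 0 were higher, where 5.34% of all tested genes were lower and 2.71% higher. The median difference was -0.39, against 0.001878 over all tested genes, and the C3H values lay below the B6 values without overlap for 21 genes (5.33% of all tested genes). With array spread as a covariate the count was 6 and the median difference -0.26, where 844 of 14190 tested genes passed in either direction. Spread was widest on average in B6, so in part it cannot be told apart from strain, and its part in the difference was not tested. The count was 13 without B6 replicate 3 (818 of 14153 tested genes in either direction) and also 13 without C3H replicate 3 (785 of 14135). For 129P2 minus B6, 27 genes were lower in 129P2 and 0 were higher, where 4.08% of all tested genes were lower and 2.11% higher. The median was -0.58, against 0.00296 over all tested genes, and 25 genes did not overlap (4.64% of all tested genes). With spread as a covariate 18 were lower, where 940 of 14190 tested genes passed in either direction. The comparisons share animals: each strain's 5 mice enter 3 of them, so their counts are not independent of each other.

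For C3H minus 129P2, Ifi27, Rtp4 and Usp18 were higher in C3H and 0 genes were lower, where 2.25% of all tested genes were higher and 2.78% lower. The C3H values lay above the 129P2 values without overlap for 3 genes (2.39% of all tested genes). These 3 genes were also lower in 129P2 than in NZO and in B6, so 129P2 was set apart below each other strain for them, as it was for 0.627% of all tested genes. The median C3H minus 129P2 difference was 0.15, against 0.009268 over all tested genes, and 29 of the 35 differences were positive, where 53.2% were over all tested genes. The count was 7 with array spread as a covariate, where 1125 of 14190 tested genes passed in either direction. It was 1 without C3H replicate 4 (538 of 14153 tested genes), 5 without B6 replicate 3 (753 of 14153) and 5 without 129P2 replicate 4 (614 of 14161).

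**Figure D2:**
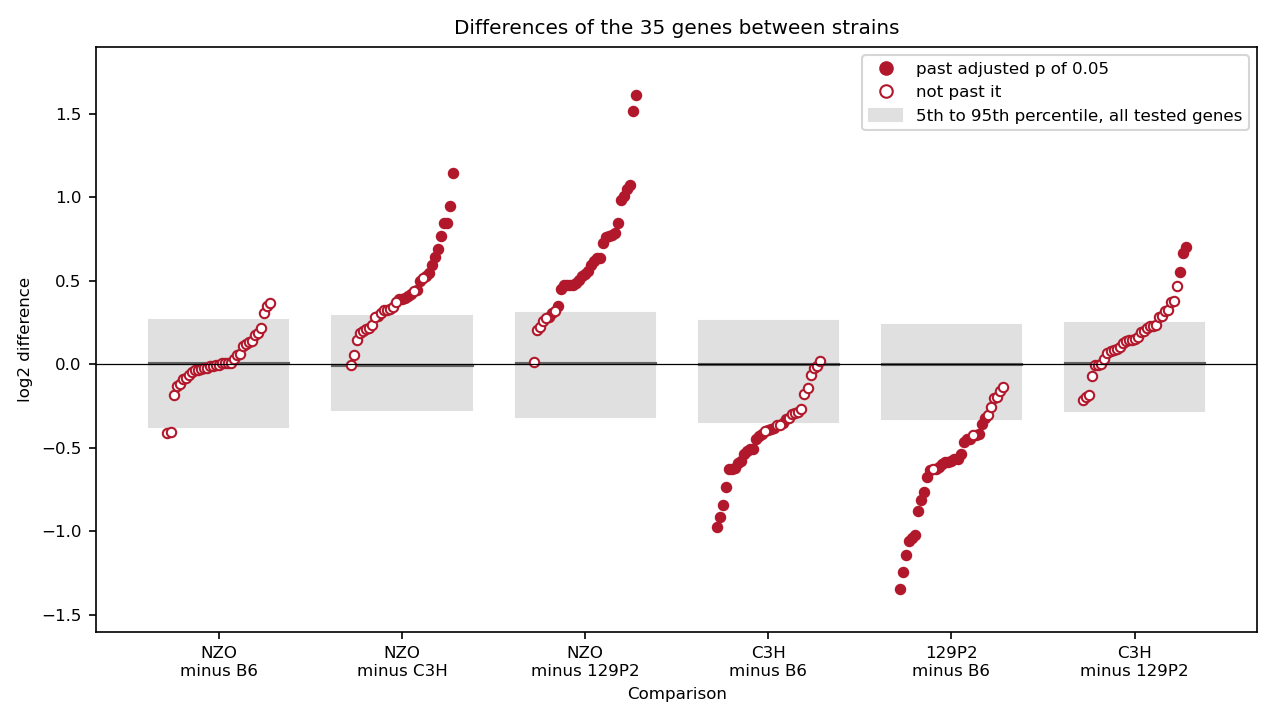
Each point is 1 of the 35 genes, placed by its log2 difference (vertical axis) in each of the 6 comparisons (horizontal axis, genes sorted by value), with filled points for genes past an adjusted p of 0.05 and grey boxes for the central range, 5th to 95th percentile, and the median of all tested genes. No point is filled for NZO minus B6, whereas 18, 29, 21 and 27 are filled in the comparisons of NZO or B6 with C3H or 129P2.

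Among the genes that carry or adjust the signal, Irf7, the transcription factor that amplifies interferon production, differed most. In NZO it had 9.76, 9.25, 9.73, 9.96 and 10.45, in C3H 8.65, 8.66, 8.59, 9.02 and 8.48, in 129P2 8.23, 7.79, 8.41, 8.80 and 8.31, and in B6 9.80, 9.36, 10.22, 9.34 and 9.53. Every NZO and B6 animal was above every C3H and 129P2 animal, while the ranges of NZO and B6 overlapped and so did those of C3H and 129P2. The difference was 1.15 ± 0.20 for NZO minus C3H (SE, limma adjusted p = 0.000386) and 1.52 ± 0.20 for NZO minus 129P2 (adjusted p = 1.29e-05), a 2.87-fold difference. It was -0.97 ± 0.20 for C3H minus B6 (adjusted p = 0.00241) and -1.34 ± 0.20 for 129P2 minus B6 (adjusted p = 7.54e-05). NZO and B6 differed by 0.18 (adjusted p = 0.592).

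Usp18, a protease that removes Isg15 from proteins and damps signalling at the receptor, was low in 129P2 alone by the test. It ranged between 8.38 and 8.83 in NZO, 8.03 and 8.54 in C3H, 6.95 and 7.93 in 129P2, and 8.24 and 9.19 in B6, so that only 129P2 lay clear of the others. It was 1.01 higher in NZO than in 129P2 (adjusted p = 0.000379), -1.02 for 129P2 minus B6 (adjusted p = 0.000426) and 0.70 for C3H minus 129P2 (adjusted p = 0.0159). Irf9, the DNA-binding subunit of the STAT complex, was higher in NZO than in 129P2 by 0.64 (adjusted p = 0.000492) and -0.58 for 129P2 minus B6 (adjusted p = 0.00167), and its C3H minus 129P2 difference of 0.29 did not pass (adjusted p = 0.164). Trim25, a ubiquitin ligase of the RNA-sensing pathway, passed for 129P2 minus B6 only, at -0.45 (adjusted p = 0.0186). Stat2, the partner of Irf9, and Ifi35 differed by between -0.30 and 0.28 in all comparisons, none past the threshold.

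The sensors of foreign RNA and DNA are 7 genes. All 7 were higher in NZO than in 129P2, by 0.28 to 0.79, and all 7 were lower in 129P2 than in B6, while 5 passed for NZO minus C3H and 5 for C3H minus B6. Dhx58, the helicase LGP2, had 8.18, 7.68, 7.98, 7.98 and 7.83 in NZO, 7.41, 7.61, 7.56, 7.42 and 7.63 in C3H, 7.06, 6.95, 7.24, 7.53 and 6.94 in 129P2, and 8.15, 7.70, 8.33, 7.81 and 7.79 in B6. All NZO and B6 values were above all C3H and 129P2 values, with narrow gaps to C3H. The differences were 0.41 for NZO minus C3H (adjusted p = 0.0447), 0.79 for NZO minus 129P2 (adjusted p = 0.000107), -0.43 for C3H minus B6 (adjusted p = 0.0305) and -0.81 for 129P2 minus B6 (adjusted p = 0.000108).

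Ddx58, the RNA sensor RIG-I, was higher in NZO than in C3H by 0.39 (adjusted p = 0.0357) and than in 129P2 by 0.54 (adjusted p = 0.00266). Ifih1, the sensor MDA5, was higher in NZO by 0.53 and 0.73 (adjusted p = 0.00893 and 0.000389), and its C3H minus B6 difference of -0.40 missed the threshold (adjusted p = 0.0532). Ddx60, a helicase linked to RIG-I signalling, differed by 0.77 for NZO minus C3H and by 0.77 for NZO minus 129P2, and was dim on 1 of the 129P2 arrays. Adar, the enzyme that edits adenosine in double-stranded RNA, had smaller differences. They passed in all 4 comparisons of NZO or B6 with C3H or 129P2, at 0.29, 0.28, -0.33 and -0.32. In that order, the calls were lost in 9, 8, 4 and 3 of 20 alternative runs. Eif2ak2, the kinase PKR that halts translation, passed for 129P2 only, with 0.53 for NZO minus 129P2, -0.61 for 129P2 minus B6 and 0.06 for NZO minus C3H (adjusted p = 0.927). Zbp1, which senses Z-form nucleic acid, was higher in NZO than in 129P2 by 0.56 and lower in C3H than in B6, at -0.35 (adjusted p = 0.0319).

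The OAS family, whose enzymes make the oligoadenylates that activate RNase L, was mixed. Oasl1, an OAS-like protein known in mouse to restrain Irf7 translation, had 8.77, 8.89, 8.77, 8.79 and 9.01 in NZO, 8.14, 8.27, 8.63, 8.60 and 8.38 in C3H, 8.02, 8.28, 8.11, 8.05 and 7.97 in 129P2, and 8.995, 8.76, 9.02, 8.70 and 8.77 in B6. NZO and B6 were again clear of C3H and 129P2, with close values inside each strain. It was 0.44 for NZO minus C3H (adjusted p = 0.00392), 0.76 for NZO minus 129P2 (adjusted p = 7.67e-06), -0.45 for C3H minus B6 (adjusted p = 0.00379) and -0.77 for 129P2 minus B6 (adjusted p = 8.98e-06). Oas1a and Oas3 were higher in NZO than in 129P2, by 0.50 and 0.35 (adjusted p = 0.00344 and 0.00106), but their C3H minus B6 differences were 0.02 and -0.01. Oasl2 passed in 3 comparisons, with -0.57 for 129P2 minus B6 (adjusted p = 0.0033), and Oas2 in none. As the gene neighbours Oas2 and Oas3 and the related Oas1a lie close together on chromosome 5, probes for one could also catch another, which was not tested.

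The IFIT genes, which bind viral RNA and block its translation, lie close together on chromosome 19. Ifit1 had 8.98, 7.89, 8.20, 8.49 and 8.62 in NZO, 7.51, 7.71, 7.46, 7.66 and 7.62 in C3H, 7.56, 6.86, 7.42, 7.69 and 7.29 in 129P2, and 8.83, 8.56, 8.76, 8.05 and 8.33 in B6. The lowest NZO animal was just above the highest C3H animal. Its differences were 0.85 ± 0.17 for NZO minus C3H (adjusted p = 0.00249), 1.08 ± 0.17 for NZO minus 129P2 (adjusted p = 0.000171), -0.91 ± 0.17 for C3H minus B6 (adjusted p = 0.00136) and -1.14 ± 0.17 for 129P2 minus B6 (adjusted p = 0.000116). Ifit3 was lower in C3H and 129P2 than in B6, at -0.84 and -1.04 (adjusted p = 0.00194 and 0.00022), and did not pass for NZO minus C3H at 0.44 (adjusted p = 0.14). Ifit2 was dim on all 5 C3H and all 5 129P2 arrays and on 3 NZO arrays, so only a bound holds: B6, with a mean of 6.73, was at least 1.07-fold higher than C3H (mean 6.19, adjusted p = 0.00667) and than 129P2 (mean 6.16, adjusted p = 0.00416), and no fold is given for NZO.

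Rsad2 and Cmpk2 are neighbours on chromosome 12 whose products make an antiviral nucleotide and supply its precursor. Rsad2, or viperin, had 8.51, 7.83, 7.82, 8.26 and 8.17 in NZO, 7.25, 7.14, 7.46, 7.24 and 7.28 in C3H, 7.09, 6.82, 7.07, 7.60 and 7.08 in 129P2, and 8.22, 7.75, 8.54, 7.78 and 7.76 in B6. All NZO and B6 animals were above all C3H and 129P2 animals. The differences were 0.84 ± 0.16 for NZO minus C3H (adjusted p = 0.000943), 0.99 ± 0.16 for NZO minus 129P2 (adjusted p = 0.000149), -0.74 ± 0.16 for C3H minus B6 (adjusted p = 0.00366) and -0.88 ± 0.16 for 129P2 minus B6 (adjusted p = 0.000684). Cmpk2 was 0.60 for NZO minus C3H and 0.60 for NZO minus 129P2 (adjusted p = 0.00593 and 0.00511), and was dim on 3 C3H and 3 129P2 arrays, so these differences may be understated. Samhd1, which hydrolyses deoxynucleotides, was higher in NZO than in C3H by 0.39 (adjusted p = 0.0166) but not past the threshold against 129P2. Ifitm3, a membrane protein that blocks virus entry, was 0.31 for NZO minus 129P2 (adjusted p = 0.043).

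The promoters of several of these genes show the element through which interferon acts. The 250 bases upstream of the annotated start of genes from the IFIT, sensor, nucleotide and signalling groups are from RefSeq on GRCm38.p6 and run 5′ to 3′ on the gene's strand. Capitals mark the ISRE core, 2 copies of GAAA with any 2 bases between them, or its reverse complement, 2 copies of TTTC with any 2 bases between them. They are Ifit1 at chr19:34640639-34640888 on the + strand, Ifit3 at chr19:34583279-34583528 on the + strand, Ddx60 at chr8:61927837-61928086 on the + strand, Rsad2 at chr12:26456453-26456702 on the - strand and Irf7 at chr7:141266425-141266674 on the - strand.
Ifit1: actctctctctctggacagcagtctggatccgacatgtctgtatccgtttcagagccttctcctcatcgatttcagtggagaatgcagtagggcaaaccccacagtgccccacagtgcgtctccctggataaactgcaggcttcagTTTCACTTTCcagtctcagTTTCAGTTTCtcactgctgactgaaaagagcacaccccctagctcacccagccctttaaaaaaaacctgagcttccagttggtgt
Ifit3: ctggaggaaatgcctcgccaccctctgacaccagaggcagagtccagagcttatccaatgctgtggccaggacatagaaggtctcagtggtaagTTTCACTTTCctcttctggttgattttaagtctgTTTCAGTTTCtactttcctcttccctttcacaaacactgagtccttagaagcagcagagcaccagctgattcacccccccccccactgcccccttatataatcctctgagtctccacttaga
Ddx60: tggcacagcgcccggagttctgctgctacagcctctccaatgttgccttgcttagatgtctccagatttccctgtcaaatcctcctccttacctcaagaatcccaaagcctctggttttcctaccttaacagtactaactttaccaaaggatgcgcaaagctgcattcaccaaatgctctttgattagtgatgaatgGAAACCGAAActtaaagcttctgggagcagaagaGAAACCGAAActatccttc
Rsad2: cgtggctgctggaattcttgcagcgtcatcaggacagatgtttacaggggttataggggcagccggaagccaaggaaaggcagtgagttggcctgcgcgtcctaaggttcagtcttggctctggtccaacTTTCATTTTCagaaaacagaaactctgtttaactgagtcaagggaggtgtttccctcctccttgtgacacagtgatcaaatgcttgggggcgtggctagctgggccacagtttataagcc
Irf7: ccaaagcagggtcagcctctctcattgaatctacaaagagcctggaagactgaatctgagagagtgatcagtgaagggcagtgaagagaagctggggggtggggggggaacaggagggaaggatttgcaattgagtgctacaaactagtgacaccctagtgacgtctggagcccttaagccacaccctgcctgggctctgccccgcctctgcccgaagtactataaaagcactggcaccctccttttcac
Ifit1, Ifit3 and Ddx60 held 2 matches each, Rsad2 held 1 and Irf7 held 0, which says only that these letters are not in that window.

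The annotated windows of 300 bases hold 250 before the start and 50 after it. In them, 11 of the 27 measured genes that have one (40.7%) held the ISRE core on either strand, against 3.99% of 27025 genes. The other 8 had no window. The genes with the ISRE core were Ddx58, Ddx60, Eif2ak2, Ifih1, Ifit1, Ifit3, Ifitm3, Oas1a, Oas3, Rsad2 and Stat2. In Ddx58, Eif2ak2, Ifih1 and Ifitm3 every match lay after the start. The GAS motif, TTC and GAA with any 3 bases between them, the element of interferon-gamma signalling, was in 7 of 27 (25.9%), against 9.55% of all genes. The median NZO minus C3H difference was 0.39 in genes with the ISRE core and 0.38 in those without, and the median NZO minus 129P2 difference was 0.54 with it and 0.48 without it. For the GAS motif the medians were 0.28 with it and 0.44 without it for NZO minus C3H. They were 0.31 with it and 0.61 without it for NZO minus 129P2. Whether the genes differ by motif was not tested. The sequences are of the B6 reference genome and those of the other strains were not analysed, so whether a strain carries a changed element was not tested.

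Parp9, Dtx3l and Parp14 lie side by side on chromosome 16, and the first 2 act as a complex that modifies proteins with ADP-ribose and ubiquitin. Parp9 had 9.41, 9.07, 9.08, 9.25 and 9.21 in NZO, 8.43, 8.69, 8.30, 8.61 and 8.52 in C3H, 8.69, 8.41, 8.77, 8.98 and 8.76 in 129P2, and 9.18, 9.08, 9.25, 9.11 and 9.06 in B6. C3H was the lowest strain here, and it stood clear of NZO and B6, but overlapped 129P2. The differences were 0.69 for NZO minus C3H (adjusted p = 3.39e-05), 0.48 for NZO minus 129P2 (adjusted p = 0.00183), -0.63 for C3H minus B6 (adjusted p = 0.000125) and -0.41 for 129P2 minus B6 (adjusted p = 0.00822).

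Parp14, which also transfers ADP-ribose, had 9.26, 8.84, 8.99, 8.72 and 8.96 in NZO, 8.47, 8.78, 8.41, 8.63 and 8.52 in C3H, 8.36, 7.99, 8.28, 8.60 and 8.42 in 129P2, and 8.92, 8.95, 9.15, 8.89 and 8.86 in B6. Its NZO and C3H values overlapped slightly, whereas NZO and 129P2 did not, with differences of 0.39 (adjusted p = 0.0264) and 0.62 (adjusted p = 0.000397). Dtx3l passed for NZO minus 129P2 at 0.47 (adjusted p = 0.0124), and its C3H minus 129P2 difference was 0.10. Herc6, the main ligase that attaches Isg15 in mouse, had 9.05, 8.77, 9.17, 8.99 and 8.89 in NZO, 8.41, 8.45, 8.04, 8.46 and 8.29 in C3H, 8.41, 7.78, 8.15, 8.49 and 8.16 in 129P2, and 8.83, 8.57, 8.77, 8.56 and 8.36 in B6. NZO was highest and overlapped B6 only, with 0.65 for NZO minus C3H (adjusted p = 0.000995), 0.77 for NZO minus 129P2 (adjusted p = 0.000113) and 0.35 for NZO minus B6 (adjusted p = 0.0639). B6 was nearer to C3H, at -0.29 for C3H minus B6 (adjusted p = 0.135).

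Of the other induced genes, Ifi27, a membrane protein strongly induced by interferon, had the largest difference of all. It had 10.99, 10.51, 10.55, 10.69 and 10.98 in NZO, 9.68, 9.83, 9.92, 9.89 and 9.64 in C3H, 8.95, 9.10, 9.33, 9.40 and 8.86 in 129P2, and 10.49, 10.11, 10.80, 9.97 and 10.49 in B6. The 4 strains fell into an order in which only NZO and B6 overlapped. The differences were 0.95 ± 0.14 for NZO minus C3H (SE, adjusted p = 7.23e-05), 1.62 ± 0.14 for NZO minus 129P2 (adjusted p = 3.44e-08, 3.06-fold), -0.58 ± 0.14 for C3H minus B6 (adjusted p = 0.0111), -1.25 ± 0.14 for 129P2 minus B6 (adjusted p = 2.47e-06) and 0.66 ± 0.14 for C3H minus 129P2 (adjusted p = 0.0045). Rtp4, a chaperone of receptors, had 9.37, 8.75, 8.77, 8.80 and 8.82 in NZO, 8.19, 8.71, 8.30, 8.48 and 8.34 in C3H, 8.03, 7.41, 7.83, 8.12 and 7.85 in 129P2, and 9.14, 8.59, 9.22, 8.69 and 8.89 in B6. All 129P2 animals were below all C3H animals, and C3H overlapped B6. Its differences were 1.05 for NZO minus 129P2 (adjusted p = 2.98e-05), 0.50 for NZO minus C3H (adjusted p = 0.0391) and 0.55 for C3H minus 129P2 (adjusted p = 0.0248).

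Xaf1, a protein linked to cell death, was higher in NZO than in C3H by 0.55 and than in 129P2 by 0.48 (adjusted p = 0.00598 and 0.0144). Sp100 was highest in B6, and its NZO minus C3H and NZO minus 129P2 differences were 0.21 and 0.02, while C3H minus B6 was -0.62 (adjusted p = 0.0059). Lgals3bp, a secreted glycoprotein, was higher in NZO than in 129P2 by 0.84 (adjusted p = 0.00862), and 129P2 replicate 2, at 9.63, lay below the other 129P2 animals.

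**Figure D3:**
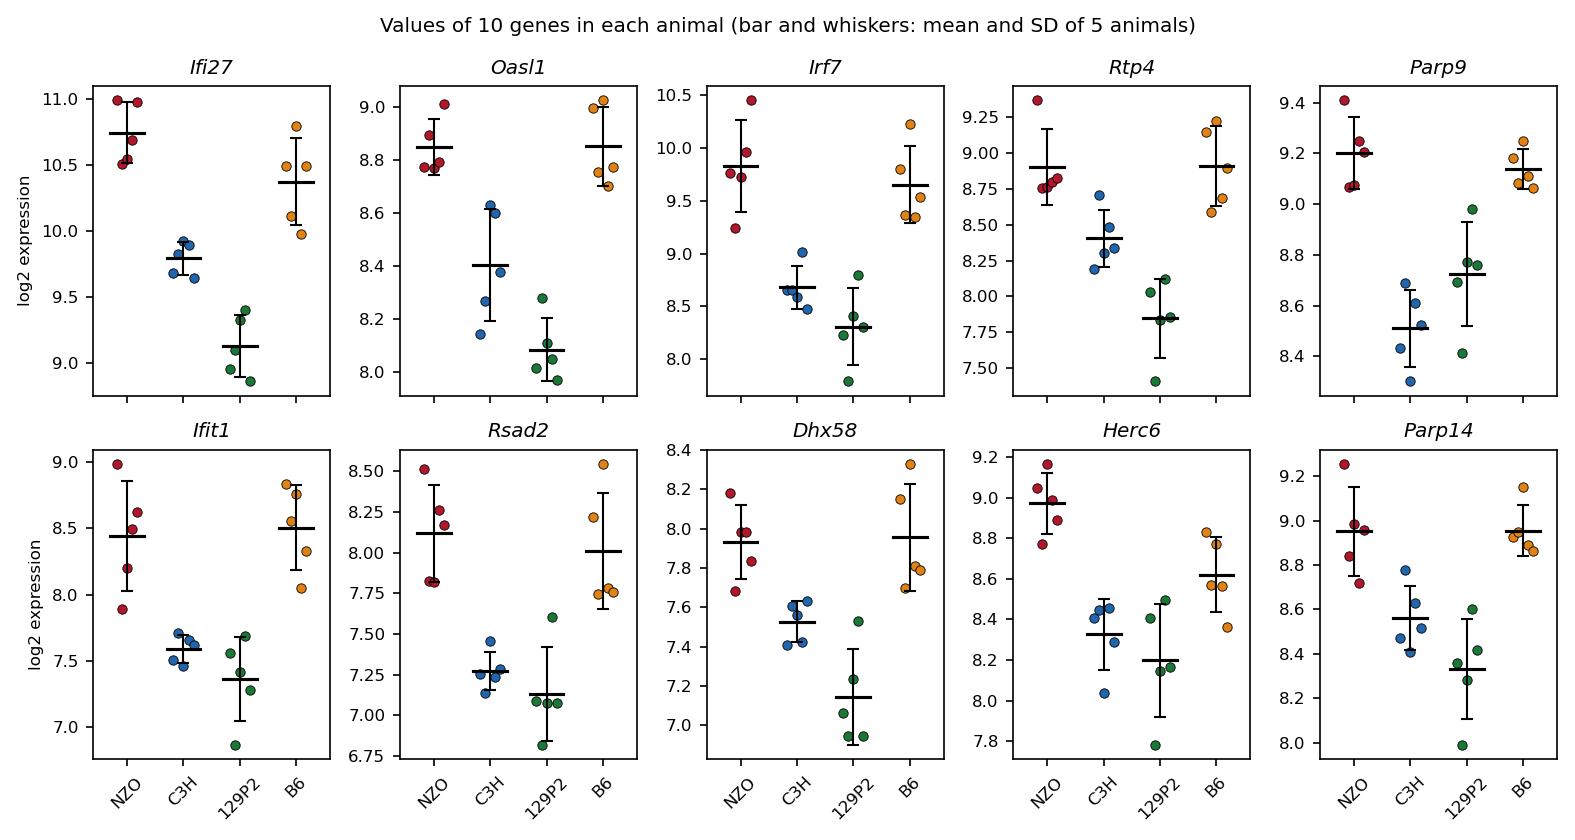
Values of 10 genes (log2, vertical axis) are shown for each animal by strain, with the mean and SD of 5 animals as a bar and whiskers; each panel has its own axis. For Irf7, Oasl1, Rsad2, Ifit1 and Dhx58 every NZO and B6 point lies above every C3H and 129P2 point, and for Ifi27 the 129P2 points lie lowest.

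By call, 15 genes passed in each of the 4 comparisons of NZO or B6 with C3H or 129P2: Adar, Cmpk2, Ddx58, Ddx60, Dhx58, Ifi27, Ifit1, Ifit2, Irf7, Oasl1, Parp14, Parp9, Rsad2, Rtp4 and Xaf1. Of these, Ifit2 passed the filter on dim genes only through its B6 and NZO arrays, and its bounds give no difference between NZO and C3H or 129P2, so its calls in the NZO comparisons, also within the counts of 18 and 29, carry no support. Its calls against B6, within the counts of 21 and 27, rest on that same filter, and only the bound given above holds for them. Cmpk2, dim on 3 C3H and 3 129P2 arrays, also needed NZO or B6 arrays to pass the filter, and its calls carry that limit. A further 5, Dtx3l, Eif2ak2, Ifitm3, Irf9 and Usp18, passed for 129P2 against both NZO and B6 and for C3H against neither. Of those 5 only Usp18 differed between C3H and 129P2 themselves, so for the other 4 a difference between C3H and 129P2 was not shown. How many of all tested genes have either pattern of calls was not counted, so the counts of 15 and 5 have no background beside them. Of the 15, only Ifit1, Irf7, Oasl1, Parp9 and Rsad2 kept all 4 calls under all settings run. The NZO minus C3H call of Dhx58, for example, was lost in 11 of 20 alternative runs.

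Within a strain, some animals deviated from the strain mean in the same direction for most of the genes. B6 replicate 3 was above its strain mean for 35 of the 35 genes, NZO replicate 1 for 30 and 129P2 replicate 4 for 31, whereas 129P2 replicate 2 was above for 5, B6 replicate 4 for 3 and B6 replicate 5 for 2. Over the deviations of all 20 animals from their strain means, the median correlation between 2 of the genes was 0.495 (Pearson's r, 595 pairs), against 0.0373 between these genes and all other tested genes. The pairs share the same 20 arrays and their spread: with array spread removed the median was 0.389. No value with all other tested genes was computed after that removal. An animal's median deviation over the 35 genes correlated with the deviation of its array's spread (Pearson's r = 0.624, 20 arrays). The counts of genes above the strain mean were not made for all tested genes. The part of array spread in these shared deviations was not tested. The highest was 0.956, between Ifih1 and Parp9. The lowest median correlations with the other genes were those of 4 of the 5 OAS family genes, at -0.0679 for Oas3, -0.00954 for Oasl1, 0.0418 for Oas1a and 0.123 for Oas2, while that of Oasl2 was 0.578.

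**Figure D4:**
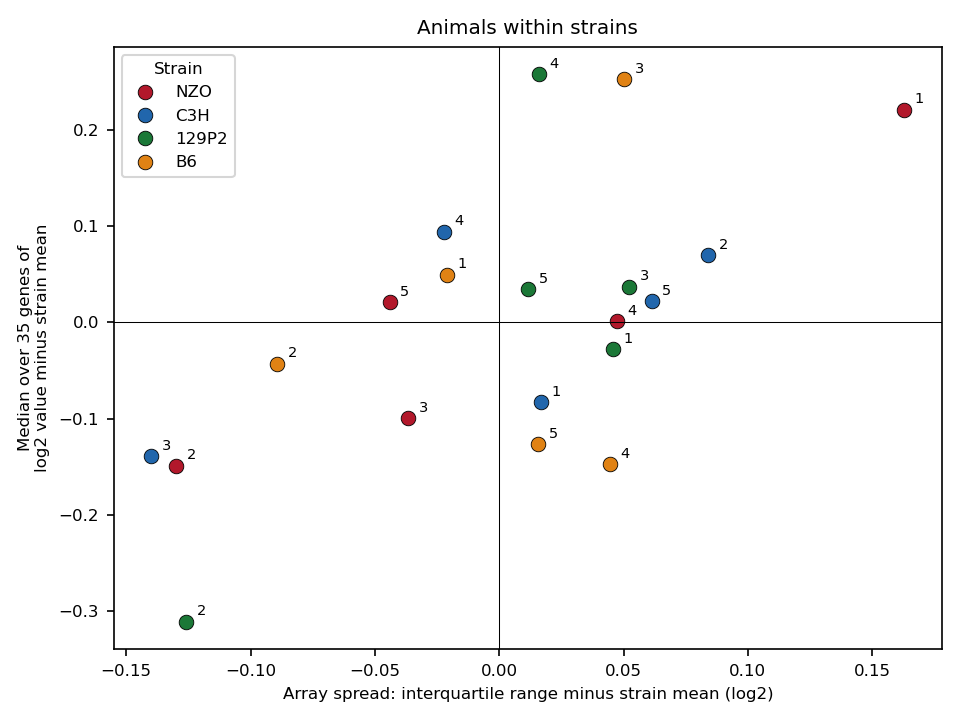
Each point is 1 animal, with the deviation of its array's interquartile range from the strain mean on the horizontal axis and the median deviation of the 35 genes from their strain means on the vertical axis (both log2). The narrow array 129P2 replicate 2 is lowest at -0.31, while 129P2 replicate 4, at 0.26, and B6 replicate 3, at 0.25, are highest. Pearson's r between the axes is 0.624.

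Genes upstream of the response were called in numbers of 0 or 1 per list and comparison, too few to set them apart from the shares over all tested genes given above, such as 10.3% for NZO minus B6. Of 16 tested genes of interferon signalling, only Tyk2, a receptor-bound kinase, passed for NZO minus B6, at -0.25, and only Irf3, which switches on interferon genes, passed in other comparisons, at 0.26 for NZO minus 129P2 and -0.40 for 129P2 minus B6. The interferon genes Ifnb1 and Ifna4 were above the 40th percentile on 1 and 0 of the 20 arrays and were not tested. Of 13 tested sensing genes upstream of interferon, Ikbke, a kinase that activates Irf3 and Irf7, was higher in NZO than in C3H by 0.34 and than in 129P2 by 0.31, and Zc3hav1, an antiviral RNA-binding protein, was -0.34 for 129P2 minus B6. Of 6 negative regulators, Socs1 and Socs3 among them, 0 passed in any comparison.

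Several genes tied more closely to interferon-gamma also differed between strains. Every call between NZO or B6 and C3H or 129P2 was in the direction seen for the 35 genes. Of 9 tested, 5 were higher in NZO than in C3H (Cxcl11, Cxcl9, Psmb8, Psmb9 and Tap1), where 3.51% of all tested genes were, and 4 were higher in NZO than in 129P2, where 4.29% were. In C3H 3 were lower than in B6, where 5.34% of all tested genes were, and in 129P2 4 were lower than in B6, where 4.08% were. Psmb8, an immunoproteasome subunit, averaged 9.36 ± 0.248 in NZO, 8.60 ± 0.115 in C3H, 8.15 ± 0.195 in 129P2 and 8.90 ± 0.112 in B6 (SD, n = 5 each), and unlike all 35 genes above it also passed for NZO minus B6. Cxcl9, a chemokine that attracts T cells, averaged 8.73 ± 0.76 in NZO, 7.67 ± 0.217 in C3H, 8.26 ± 0.445 in 129P2 and 9.42 ± 0.539 in B6, and was -1.75 for C3H minus B6.

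Markers of other liver cells moved with some of these comparisons. The summed linear level of 10 Kupffer cell markers ran between 4386 and 7114 in NZO, 4417 and 5338 in C3H, 4639 and 9562 in 129P2, and 5383 and 7833 in B6. Adgre1, C1qc and Csf1r were lower in C3H than in B6, where 5.34% of all tested genes were. Adgre1 and Timd4 were lower in C3H than in 129P2, where 2.78% of all tested genes were. Lyz2, a myeloid marker, was lower in C3H, at -0.91 for C3H minus B6 and 1.10 for NZO minus C3H. In 129P2, 1 of the 10 Kupffer markers, Marco, was lower than in B6, where 4.08% of all tested genes were. Of the 10 Kupffer markers, 2 were lower in NZO than in B6, Clec4f at -0.69 and C1qa at -0.43. Against 129P2 only 1 was lower in NZO, Clec4f at -0.59, and for NZO minus C3H 0 passed. The median difference over the 10 was -0.20 for NZO minus B6, -0.14 for NZO minus 129P2 and 0.18 for NZO minus C3H. Of 5 endothelial markers, NZO had 3 lower than C3H, 2 lower than 129P2 and 3 lower than B6, and of 5 stellate cell markers it had 2 lower than C3H, 3 lower than 129P2 and 3 lower than B6. Over all tested genes 3.09% were lower in NZO than in C3H and 4.61% lower than in 129P2. For NZO minus B6, 10.3% of all tested genes passed in either direction. Of 8 neutrophil markers, S100a8, Ngp and Retnlg were dim on every array and were not tested. Among the 5 tested, Lcn2 and S100a9 were higher in NZO than in B6, and 0 passed in the other comparisons. Lcn2 varied widely, at 11.54 ± 1.375 in NZO and 9.53 ± 0.367 in B6 (SD, n = 5 each). Among T and NK cell markers Cd3d, Cd3g, Klrb1c, Ncr1, Gzma and Gzmb were dim on every array, and of the B cell markers Cd79a and Ms4a1 were too. Cd3e, Cd8a, Prf1 and the B cell marker Cd79b were above the 40th percentile on all 20 arrays. Among the 6 tested T and NK cell markers only Cd4, above the 40th percentile on 18 arrays, passed in any comparison. Cd4 was lowest in 129P2: it was 0.71 for NZO minus 129P2 (adjusted p = 0.0023), -0.54 for 129P2 minus B6 (adjusted p = 0.0282) and 1.01 for C3H minus 129P2 (adjusted p = 7.4e-05). The means of Cd3e ran from 7.58 in NZO to 7.658 in 129P2, and those of Cd8a from 6.837 in B6 to 6.966 in NZO. The sum of the plasmacytoid dendritic cell markers was 2746 to 3603 in B6 and at most 1228 in the other strains, almost wholly through Bst2, itself an interferon-induced gene, which averaged 9.07 in NZO, 8.98 in C3H, 8.80 in 129P2 and 11.16 in B6. The part of cell composition in the strain differences was not tested.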

How the data were processed

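Liver RNA from 20 mice was measured on whole-transcript arrays. The authors made the deposited log2 values with Affymetrix Expression Console, using robust multi-array averaging (RMA). Both tools are named in the submitters' processing notes without a version. RMA normalizes arrays against each other, so values are relative within the set. Arrays have no read depth, and their number limits the precision. Replicate numbers are accession order only, as no label gives one.

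Names of probe sets come from the platform annotation: of 35556, 21789 carried 1 gene symbol, 1621 carried several and 12146 are unnamed here. Probe sets with several symbols or none were left out, and the brightest one on average stood for its gene. Testing required a value above the array's 40th percentile on 5 or more arrays, which 14190 of 19938 genes met. limma 3.58.1 (R 4.3.3, with the package data.table in version 1.17.8) fitted 1 mean per strain with an intensity trend and no covariate (16 residual and 6.37 prior degrees of freedom), and genes with an adjusted p under 0.05 were called. A gene dim on all arrays of a strain got a bound in place of a fold. Chromosomes and promoters are from RefSeq GRCm38.p6. Figures used matplotlib 3.10.9 and pandas 2.3.3 in Python 3.11.15. The fit was tested on simulated data.

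The genes, the lists and the tests were chosen with earlier results of these data known. Values on every animal are given for the 10 genes of smallest F-test p whose largest difference was at least 0.6, and pathway genes are named where called. Ifnb1, Ifna4, Socs1, Socs3, Bst2 and the cell markers are named for their roles, after their values were seen. The alternatives changed the filter on dim genes (none, or the 60th percentile), the normalization (array medians made equal, or a further quantile step), the variance model (without the trend, or robust), the strains in the fit, the treatment of several probe sets, and the arrays (spread as a covariate, the 3 narrowest left out, each animal left out).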

Additional observations from a re-analysis of the deposited data

Results flagged for a closer look

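In 8 of 144 sets of 5 animals tested, 1 animal stood apart by Dixon's ratio above 0.71, and chance gives about 1 in 20. B6 replicate 3 was highest for Ifit2, at 7.11 against 6.69 for the next animal, and for Oasl2, at 8.37 against 7.82. NZO replicate 1 was highest for Rtp4, at 9.37 against 8.82, and lowest for Lgals3bp, at 11.24 against 11.50. For Lgals3bp, 129P2 replicate 2 was also lowest, at 9.63 against 10.79, the widest gap of the 8. C3H replicate 3, the array with the narrowest spread, was lowest for Parp12, at 8.76 against 9.21, and for Stat2, at 9.07 against 9.45. C3H replicate 2 was highest for Ifit3, at 8.04 against 7.80. No cause of these values was tested.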

How the results depend on the processing

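No difference of a called gene reversed under any alternative run. The F-test count of 32 was between 30 and 33 when each animal was left out. The count for NZO minus B6, which was 0, became 1 with another quantile normalization, 1 without the 3 narrowest arrays and 1 with only the compared strains in the fit (Herc6 each time). With array spread as a covariate it was 3 (Herc6, Ifi35 and Ifih1). All of these were higher in NZO. Without single animals it lay between 0 and 2, in both directions. It was 2 without B6 replicate 3 (Ifi27 and Oas3, higher in NZO), C3H replicate 3 (Herc6 higher, Sp100 lower) or NZO replicate 1 (Ifit3 and Sp100, lower). It was 1 without B6 replicate 1, NZO replicate 4 or 129P2 replicate 2 (higher in NZO) and without C3H replicate 2 (Sp100, lower). The count for NZO minus C3H was 18, became 11 with equal array medians and lay between 12 and 23 without single animals, and that for NZO minus 129P2 was 29, with a range of 25 to 29. For C3H minus B6 the count of 21 became 6 with array spread as a covariate and lay between 13 and 24 without single animals, with 13 both without B6 replicate 3 and without C3H replicate 3. For 129P2 minus B6 it was 27, with a range of 21 to 28. For C3H minus 129P2 the count of 3 became 5 with another quantile normalization and 7 with array spread as a covariate, and lay between 1 and 5. The numbers passing among all tested genes also changed between settings, as given above for some of them. The cause of these changes was not tested. Under all settings run, the calls kept were 11 of 18 for NZO minus C3H, 22 of 29 for NZO minus 129P2, 6 of 21 for C3H minus B6 (Ifit1, Ifit3, Irf7, Oasl1, Parp9 and Rsad2), 18 of 27 for 129P2 minus B6 and 1 of 3 for C3H minus 129P2 (Ifi27). The strains are separate groups of animals and the labels give no pairing between them, so no paired analysis was made. Differences in probe binding between strains were not tested.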
